A study of Mus musculus with 12 samples.

Results

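The 10 arrays of compound-treated 3T3-L1 cells fell into 5 pairs, one for each compound, and the labels number the arrays of a pair 1 and 2. The 5 arrays numbered 2 (the second arrays) were set against the 5 numbered 1 (the first arrays), paired by compound. Membership comes from the array numbers in the labels and from no measured value. These 10 of the 12 arrays of the study are joined here by the 2 control arrays, which form a pair of their own. SQ is squalene, the hydrocarbon from which cells make sterols, and mono-, di-, tri- and tetra-SQ are squalene derivatives that carry ethylene glycol. The labels give a dose of 5 µM and 14 days of exposure for each of the 5. The controls are labelled as untreated and as not induced. The protocol, which is the same for all samples, describes an induction medium with IBMX, dexamethasone and insulin, followed by insulin alone, both with or without compound. Whether the control cells received the hormone mix therefore cannot be settled from the labels. Nothing in the labels says how a second array differs from a first one, or that the arrays of a pair came from separate cultures, so p-values measure the spread between these arrays, which may be technical.

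3T3-L1 is an established line of mouse fibroblasts that are committed to the fat lineage. After growth arrest at confluence, insulin, a glucocorticoid and a rise in cyclic AMP start their differentiation: C/EBPβ comes first and switches on PPARγ and C/EBPα, which drive the genes of lipid storage and insulin-responsive glucose uptake. Immediate early genes are a different class, transcribed within minutes of contact with serum, growth factors or stress from promoters that are already occupied by their factors.

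The values are log2 signals of 22206 probe sets. Signals were on one scale across arrays: the median lay between 5.50 and 5.59 in the second arrays, between 5.55 and 5.61 in the first and at 5.57 and 5.58 in control. Negative control probe sets, 5222 in number, were brighter in the second arrays, with medians of 6.49 to 6.66 against 6.10 to 6.28 in the first arrays and 6.26 and 6.27 in control. The ranges of second and first arrays did not overlap. The share of probe sets below that mark was 57.2% to 58.7% in the second arrays, 54.6% to 55.9% in the first and 56% in control. Added spike controls differed by -0.16 to 0.19 between second and first arrays on average. The tri-SQ 2 array stood apart from the other second arrays in dap (8.60 against 7.19 to 7.51) and thr (7.53 against 6.37 to 6.45), which are spiked in before labelling. The part of these differences in the results was not tested.

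The second arrays differed from the first in every compound. Of 22206 probe sets, 4697 passed the test (21.2%, limma with the compound as a block, adjusted p under 0.05). In the second arrays 2485 were higher (11.2%) and 2212 were lower (9.96%), and 4476 of the 4697 differed in the same direction in all 5 pairs. Large changes ran mostly downward: 108 probe sets were higher and 271 lower by over 2 log2 units. Without the tri-SQ pair the test called 4309 probe sets, 2332 higher and 1977 lower.

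Within single pairs, probe sets over 1 log2 unit apart numbered 3072 in SQ, 2263 in mono-SQ, 2414 in di-SQ, 3669 in tri-SQ and 2431 in tetra-SQ, against 50 in the control pair. Between 97.8% and 99.8% of the 4697 called probe sets ran in the called direction in each compound pair, as they had to for most, since those pairs made the calls. In the control pair, which the calls did not rest on, 49.2% did.

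**Figure D1:**
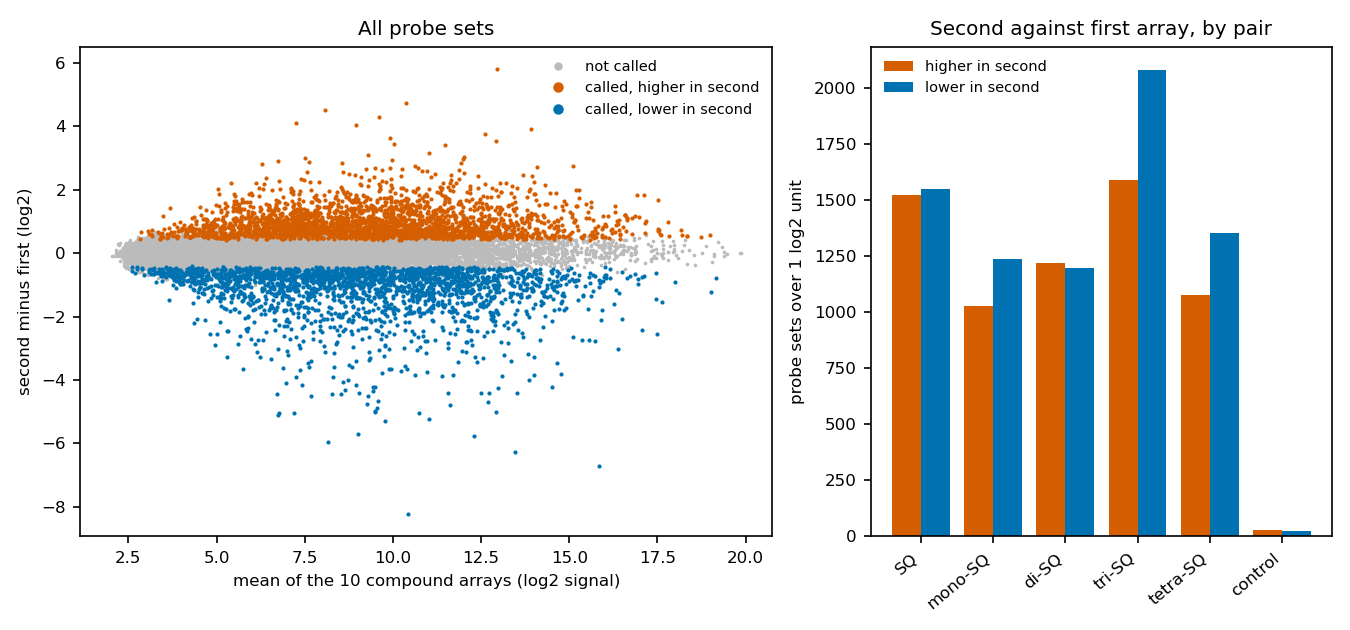
Left, each probe set's second minus first difference (log2, mean over the 5 pairs) against its mean level in the 10 compound arrays, coloured by the limma call. Right, the number of probe sets over 1 log2 unit higher or lower in the second array of each pair: the 5 compound pairs have 2263 to 3669 in all, the control pair 50.

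The widest differences were downward. Ghrh, which encodes growth hormone-releasing hormone, read 5.17, 7.16, 6.34, 6.80 and 6.15 in the second arrays (here and below SQ first, then the mono-, di-, tri- and tetra- derivative), against 13.97, 14.54, 14.87, 15.03 and 14.35 in the first arrays and 13.82 and 13.74 in control. Only 2 of the 5 second arrays lay above their negative control median, so the difference of -8.23 ± 0.20 rests on signals near background. Enpp2, the gene of autotaxin, a secreted enzyme that makes lysophosphatidic acid, stood at 12.34, 12.25, 12.57, 12.99 and 12.22 in the second arrays, against 19.24, 19.20, 19.22, 19.20 and 19.13 in the first and 19.35 and 19.37 in control, a difference of -6.72 ± 0.16. Its first arrays spanned 0.11 log2 units and lay just below control, and all 5 second arrays lay far below both.

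Others that fell were the imprinted gene Peg10 (-6.26 ± 0.14), the membrane-binding annexin Anxa8 (-5.77 ± 0.14), the apolipoprotein L family member Apol6 (-5.30 ± 0.15) and the carbonyl reductase Cbr2 (-5.06 ± 0.24). For 5 of the 15 lowest genes the second arrays lay below the negative controls on every array, which leaves only a lower bound, set against the negative control medians. The bounds were at least 39.5-fold lower for the cytochrome P450 Cyp2ab1, 24-fold for the keratinocyte protein suprabasin (Sbsn), 8.99-fold for tissue-nonspecific alkaline phosphatase (Alpl), 6.61-fold for the small GTPase Rasd1 and 6.59-fold for Ndrg1. In 10 of the 15 lowest genes the mean of the first arrays was within 0.25 log2 units of control. They were Enpp2, Peg10, Anxa8, Cyp2ab1, Apol6, Pde3b, Ndrg1, Rasd1, Alpl and Slc2a4.

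Fat cell transcripts were lower as a group, and several of them stayed above background. Of 33 mature adipocyte genes measured, 26 fell and 0 rose, against 9.96% and 11.2% of all probe sets, and their median difference was -2.54 (all probe sets, -0.02). Plin1, the coat protein of large lipid droplets, read 10.53, 10.28, 10.67, 10.19 and 10.09 in the second arrays, against 15.04, 15.09, 15.30, 15.05 and 14.68 in the first and 15.29 and 15.27 in control (-4.68 ± 0.14, adjusted p = 1.84e-08). Slc2a4, the insulin-responsive glucose transporter GLUT4, read 6.73, 6.67, 7.35, 7.20 and 7 against 11.92, 11.92, 12.10, 12.23 and 11.70 and 12.13 and 12.08 (-4.98 ± 0.15, adjusted p = 1.84e-08). No second array of either gene came within 4 log2 units of its first array, and the first arrays lay around control. The adipokine complement factor D (Cfd) fell by 5.02 ± 0.27 and the neuronal and fat cell protein gamma-synuclein (Sncg) by 5.00 ± 0.22.

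Hallmark genes outside the naming rule, added after their values were seen, fell less. Adiponectin (Adipoq) averaged 14.87 ± 0.52 in the second arrays, 17.90 ± 0.25 in the first (SD, n = 5 each) and 17.43 in control, a difference of -3.03 ± 0.22. The fatty acid carrier Fabp4 had 16.20 ± 0.24 against 18.74 ± 0.10, with control at 18.31, and lipoprotein lipase (Lpl) 16.75 ± 0.13 against 18.18 ± 0.09, with control at 18.12. In the second arrays all 3 lay above their negative control medians. Other genes lay nearer to those medians of 6.49 to 6.66: Slc2a4 read 6.67 to 7.35, and the desaturase Scd3 lay below them on every second array. These 3 bright genes therefore do not speak for all fat cell genes. In these bulk samples fewer fat cells and less of each RNA per fat cell cannot be told apart. Among the 7 members that did not pass, the imprinted gene Nnat differed by 0.03 ± 0.18 and lay below the negative controls in all arrays.

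**Figure D2:**
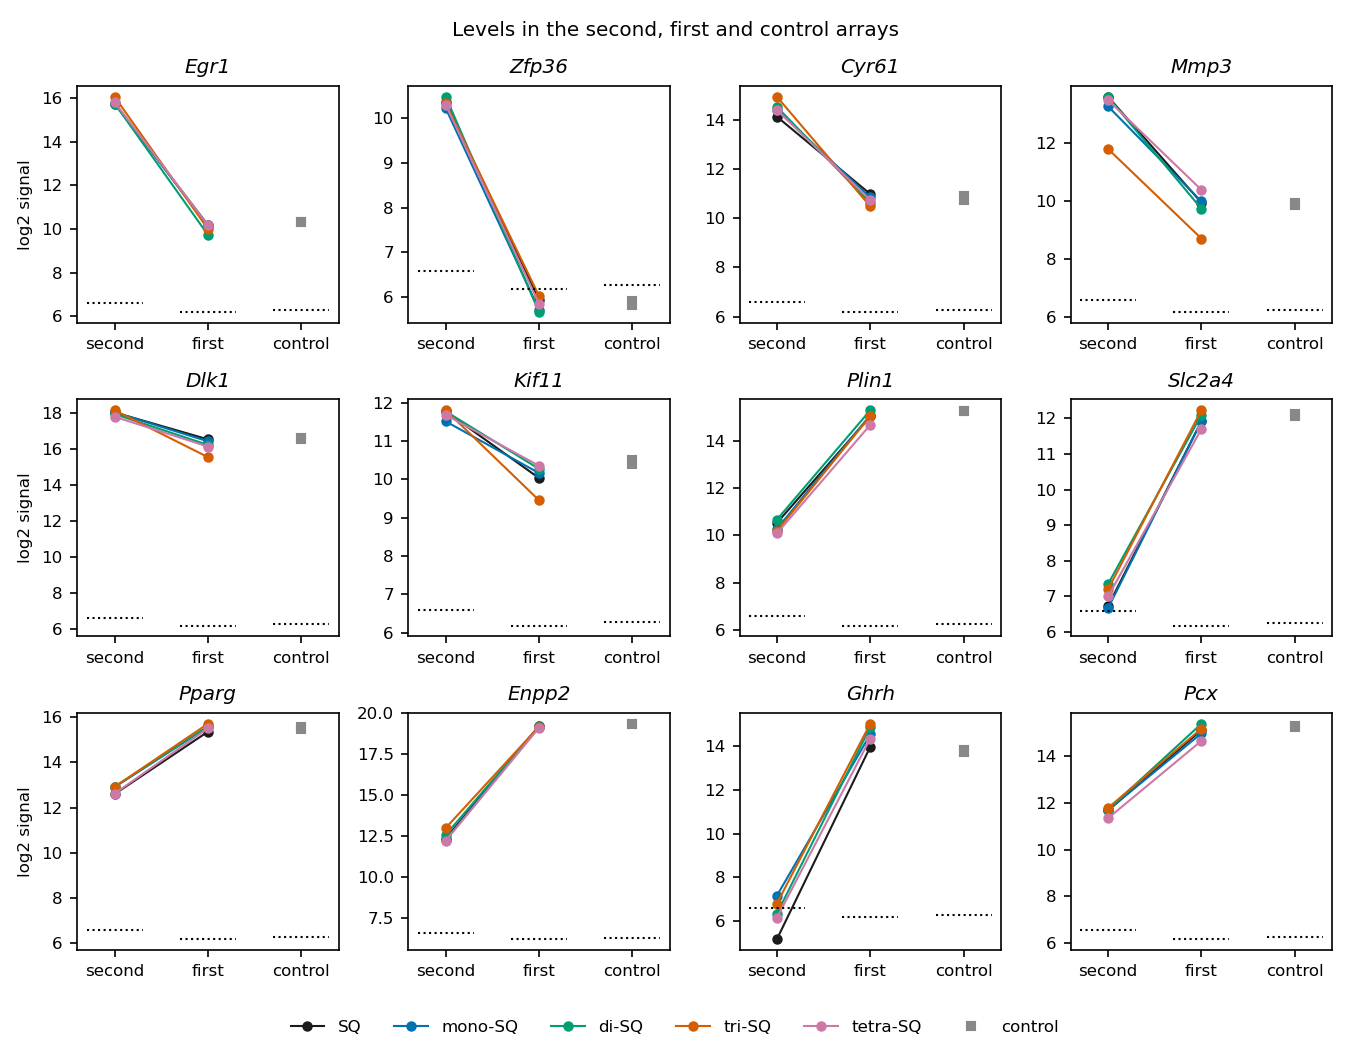
Log2 signal of 12 genes in the second, first and control arrays, with a line for each compound's pair and a dotted mark at the median negative control signal of each class. Egr1, Zfp36, Cyr61, Mmp3, Dlk1 and Kif11 are higher in all 5 second arrays, the other 6 genes lower, and the mean of the first arrays differs from that of control by at most 0.77 (Ghrh).

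The regulators of fat cell development split. Of 26 adipogenic transcription factors 11 fell and 3 rose, with a median of -0.25. Pparg, the receptor at the top of the late programme and named here for that role, read 12.60, 12.91, 12.92, 12.92 and 12.62 in the second arrays, against 15.36, 15.57, 15.59, 15.71 and 15.51 in the first and 15.48 and 15.57 in control (-2.75 ± 0.13, adjusted p = 3.12e-07). Its partner Cebpa fell by 3.12 ± 0.16, the liver X receptor alpha gene Nr1h3 by 3.54 ± 0.18, and the glucocorticoid-induced factor Klf15 was at least 4.86-fold lower. The early factor Cebpb and Creb1, which carries the cyclic AMP signal, had the smallest differences in the list and were named for that. They do not stand for early factors as a class. Cebpb averaged 8.36 ± 0.27 in the second arrays and 8.32 ± 0.22 in the first (SD, n = 5 each). Its difference was 0.04 ± 0.18 (limma adjusted p = 0.93), and that of Creb1 was -0.00 ± 0.15 (limma adjusted p = 0.991). Egr2, also called Krox20 and an early promoter of adipogenesis, rose, and its values are given with the immediate early genes.

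Factors that restrain adipogenesis tended the other way, with 8 of 25 higher and 1 lower (median 0.24). Dlk1, the preadipocyte surface protein Pref-1, read 18.06, 18.07, 17.97, 18.18 and 17.82 in the second arrays, against 16.56, 16.45, 16.25, 15.57 and 16.16 in the first and 16.61 and 16.57 in control (1.82 ± 0.18, adjusted p = 4.53e-05), with no overlap. The nuclear receptor Nr2f2 (1.63 ± 0.15) and the TGF-beta mediator Smad3 (1.54 ± 0.17) also rose. Id3, an inhibitor of basic helix-loop-helix factors, was at least 2.39-fold higher, since its first arrays lay below the negative controls.

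**Figure D3:**
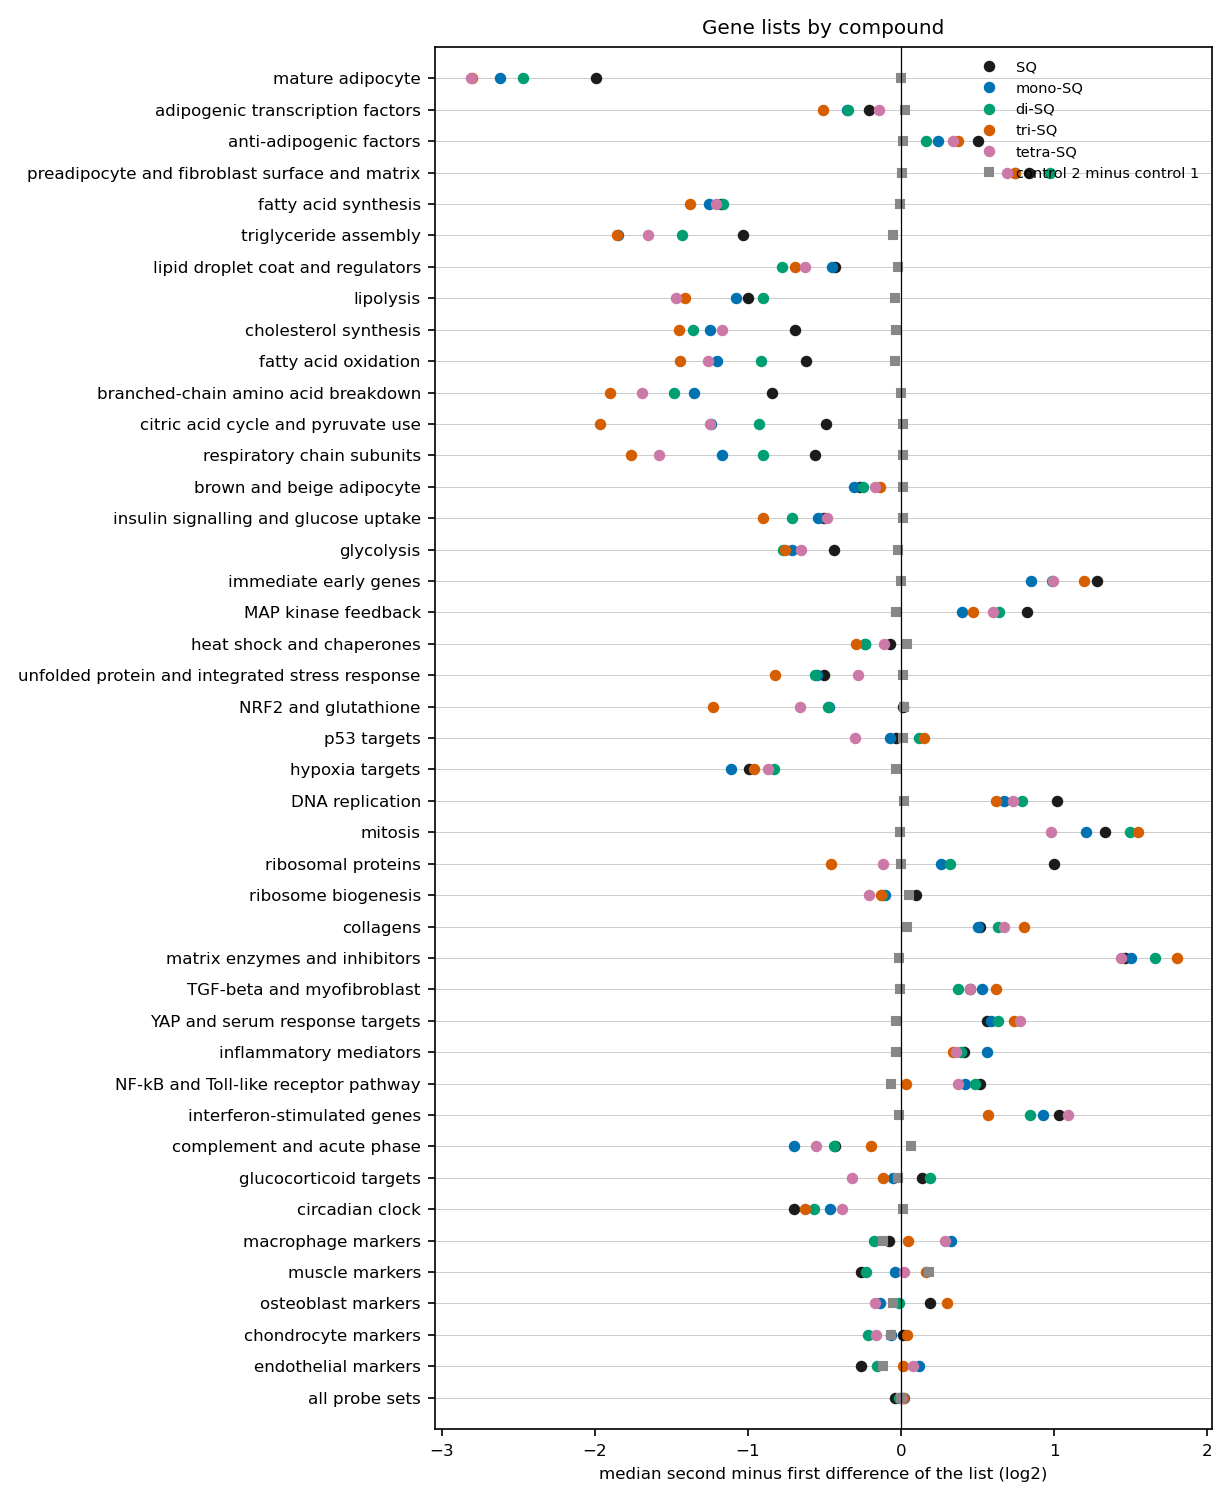
Median second minus first difference (log2) of each of 42 gene lists and of all probe sets, with a coloured point for each compound and a grey square for control 2 minus control 1. Fat cell and mitochondrial lists lie to the left of 0 and immediate early, matrix and mitosis lists to the right in all 5 compounds, and the control squares lie near 0.

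Genes of lipid making and storage fell in each list. Of 22 fatty acid synthesis genes 15 fell and 0 rose (median -1.20). Fatty acid synthase (Fasn) differed by -2.46 ± 0.15 and the acyl-CoA synthetase Acsl1 by -2.73 ± 0.16, and the desaturase Scd3 was at least 7.07-fold lower. Triglyceride assembly followed, with 11 of 18 lower and 0 higher (median -1.68). Gpd1, which makes glycerol phosphate, read 12.38, 12.21, 12.64, 12.69 and 12.01 in the second arrays, against 16.70, 16.76, 16.68, 16.79 and 16.18 in the first and 16.81 and 16.76 in control (-4.24 ± 0.14, adjusted p = 3.44e-08). The acyltransferases of the last step, Dgat2 and Dgat1, differed by -3.87 ± 0.16 and -3.67 ± 0.22. Lipid droplet genes fell in 7 of 15 and rose in 1, with the fusion protein Cidec at -3.80 ± 0.17 and the perilipin Plin4 at -3.44 ± 0.14.

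Lipid release fell with lipid storage. Of 19 lipolysis genes 14 fell and 1 rose (median -1.02, or -2.58 over members above a filter on dim probe sets). Lipe, hormone-sensitive lipase, read 11.14, 11.09, 11.49, 11.66 and 11.16 in the second arrays, against 15.67, 15.67, 15.78, 15.97 and 15.47 in the first and 15.80 and 15.79 in control (-4.40 ± 0.14, adjusted p = 2.03e-08). Pde3b, the phosphodiesterase through which insulin restrains lipolysis, differed by -5.22 ± 0.19, the carboxylesterase Ces1f by -4.80 ± 0.14, and G0s2, an inhibitor of the lipase ATGL, by -4.07 ± 0.19. Named enzymes and inhibitors of lipolysis thus moved the same way, and 2 of the 5 G0s2 signals in the second arrays were below their negative control median.

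Cholesterol synthesis, the pathway that uses squalene, fell in 19 of 27 genes and rose in 0 (median -1.22). Sqle, squalene epoxidase, the enzyme that oxidises squalene, read 10.06, 10.09, 10.28, 9.87 and 10.06 in the second arrays, against 12.32, 12.19, 12.34, 11.97 and 12.30 in the first and 12.18 and 12.21 in control (-2.15 ± 0.13, adjusted p = 1.79e-06). The 5 second arrays span 0.41 log2 units and lie about 2 units below the first, which surround control. The next steps toward cholesterol fell too: Cyp51 by 2.15 ± 0.13, Msmo1 by 2.44 ± 0.23 and Dhcr7 by 2.55 ± 0.16.

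Mitochondrial genes fell across pathways, with sizes that differed between compounds. Breakdown of branched-chain amino acids fell in 19 of 21 genes and rose in 0 (median -1.40), with the dehydrogenase subunit Dbt at -3.06 ± 0.14 and the transaminase Bcat2 at -2.50 ± 0.15. The citric acid cycle and pyruvate list fell in 21 of 26 and rose in 0 (median -1.01). Pcx, pyruvate carboxylase, which feeds lipid synthesis in fat cells, read 11.67, 11.69, 11.71, 11.78 and 11.34 in the second arrays, against 15.10, 14.96, 15.37, 15.16 and 14.64 in the first and 15.27 and 15.25 in control (-3.41 ± 0.14, adjusted p = 1.03e-07). Isocitrate dehydrogenase subunit Idh3a fell by 2.43 ± 0.22, and Idh2 was not called (0.24 ± 0.20, adjusted p = 0.474). Fatty acid oxidation fell in 16 of 22 and rose in 1 (median -1.12), with the carnitine palmitoyltransferase Cpt2 at -2.36 ± 0.17.

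Respiratory chain subunits fell in 22 of 25 and rose in 0, with a median of -1.23, or -0.95 without the tri-SQ pair. By compound the median was -0.56 in SQ, -1.17 in mono-SQ, -0.90 in di-SQ, -1.76 in tri-SQ and -1.58 in tetra-SQ. Cytochrome c (Cycs) differed by -2.74 ± 0.23 and cytochrome c1 (Cyc1) by -2.47 ± 0.15. Against the 2 control arrays the list's median was -0.53 in the second arrays and 0.54 in the first. By these medians the distance between second and first arrays was made of both a lower second and a higher first array. Against control, 9 of 25 subunits were called lower in the second arrays (of all 22206 probe sets, 2060). In the first arrays 0 were called (of all probe sets, 1). Brown fat genes were called about as often as all probe sets (3 of 15 lower, 0 higher, 20% against 21.2%). Ucp1, the heat-producing uncoupler, lay below the negative controls in all arrays.

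Insulin signalling and glucose use fell in part. In the insulin list 12 of 22 genes fell and 2 rose (median -0.56), among them the kinase Akt2 (-1.79 ± 0.18), while the phosphatase Ptpn1 was not called (0.05 ± 0.15, adjusted p = 0.869). Glycolysis fell in 12 of 18 and rose in 1 (median -0.72): hexokinase Hk2 differed by -2.14 ± 0.14 and the regulator Pfkfb3 by -2.55 ± 0.22. Phosphoglycerate kinase Pgk1 read 17.35 ± 0.06 in the second arrays and 17.44 ± 0.09 in the first (SD, n = 5 each; difference -0.08 ± 0.13, adjusted p = 0.746). Among 17 hypoxia targets 11 fell and 3 rose, with the mitophagy receptor Bnip3 at -2.32 ± 0.22 and carbonic anhydrase Car9 at least 1.37-fold lower.

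Immediate early genes made up much of the top of the list of genes that rose. Of 38 measured, 22 rose and 1 fell (median 1.01), and 5 of the 6 highest genes of the whole array are members. Egr1, a zinc finger factor induced by serum and growth factors, read 15.76, 15.79, 15.76, 16.07 and 15.82 in the second arrays, against 10.18, 10.13, 9.73, 10 and 10.17 in the first and 10.30 and 10.30 in control (5.80 ± 0.15, adjusted p = 6.02e-09). Egr2, its relative, read 12.35, 13.01, 12.14, 13.27 and 12.98 against 8.50, 8.12, 7.71, 7.72 and 8.03 and 8.33 and 8.46 (4.73 ± 0.22, adjusted p = 2.4e-07). Both stood over 3 log2 units higher in every second array than in any first or control array. Zfp36, which encodes tristetraprolin, a protein that destabilises cytokine mRNAs, read 10.36, 10.22, 10.48, 10.33 and 10.30 against 5.93, 5.71, 5.66, 6.02 and 5.85 and 5.83 and 5.90. Its first and control arrays all lay below the negative controls, so it was at least 17.8-fold higher.

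Ier2 (4.29 ± 0.18) and the AP-1 subunit Junb (4.04 ± 0.18) also rose. Jun and Fos, AP-1 genes outside the naming rule, were chosen after their values were seen. Jun rose (2.62 ± 0.14). Fos lay above the negative controls on 2 of 5 second arrays and on 0 of 5 first arrays, so no fold is given. Jund did not differ detectably (0.04 ± 0.14, adjusted p = 0.906). MAP kinase feedback genes, which such signalling induces and which damp it, rose in 11 of 21 and fell in 2 (median 0.62), with the inhibitors Spry2 at 2.92 ± 0.17 and Errfi1 at 2.71 ± 0.15 and the growth factor epiregulin (Ereg) at 2.66 ± 0.19.

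Promoters of all measured members of a list, called or not, were read from RefSeq (GRCm38.p6), from 250 bases before to 50 after each start site. A CArG box, the site of serum response factor and a motif of many immediate early promoters, was searched as CC, 6 bases of A or T, then GG. It reads the same on both strands, and matches of a motif could overlap here and below. It was found in 4 of 30 immediate early genes with a promoter in the table (13.3%) and in 1.81% of all 27025 genes, counting a gene with several start sites once if any window held it. The cyclic AMP element TGACGTCA was in 3 of the 30 (10%; all genes, 2.03%). The E-box CACGTG was in 9 (30%; all genes, 8.09%). Shown are 2 called members of the 4, with the box in capitals. They were not chosen from all 4 by size alone, so a member with a larger difference may be missing.
Egr2, chr10:67537316-67537615, + strand: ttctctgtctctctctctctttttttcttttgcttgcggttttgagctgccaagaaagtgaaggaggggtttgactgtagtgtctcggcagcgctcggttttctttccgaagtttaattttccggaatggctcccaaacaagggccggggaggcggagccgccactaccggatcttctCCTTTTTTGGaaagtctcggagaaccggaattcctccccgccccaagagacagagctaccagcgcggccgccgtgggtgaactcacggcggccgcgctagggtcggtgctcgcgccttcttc
Zfp36, chr7:28379179-28379478, - strand: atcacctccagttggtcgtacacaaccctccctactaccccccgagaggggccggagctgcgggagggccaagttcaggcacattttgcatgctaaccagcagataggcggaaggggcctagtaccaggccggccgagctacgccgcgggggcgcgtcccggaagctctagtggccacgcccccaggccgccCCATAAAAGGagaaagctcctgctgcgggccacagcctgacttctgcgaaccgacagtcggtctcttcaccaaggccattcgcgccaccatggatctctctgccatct
The box began 72 bases before the start site in Egr2 and 58 bases before it in Zfp36. A match of letters is a description of the sequence and not of binding.

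Matrix and fibroblast genes rose beside them. Of 24 matrix enzymes and inhibitors 17 rose and 1 fell (median 1.69, or 1.51 without the tri-SQ pair). Mmp3, stromelysin 1, read 13.61, 13.28, 13.60, 11.81 and 13.50 in the second arrays, against 9.96, 10, 9.75, 8.72 and 10.40 in the first and 9.93 and 9.88 in control (3.39 ± 0.16, adjusted p = 2.77e-07), and tri-SQ had the lowest value of each class. The gelatinase Mmp9 was at least 8.8-fold higher, the inhibitor Timp2 rose by 2.25 ± 0.16 and the procollagen peptidase Adamts2 by 2.52 ± 0.18. Osteoglycin (Ogn), a small proteoglycan of connective tissue, read 15.98, 16.02, 15.79, 15.66 and 15.89 against 11.86, 12.03, 11.93, 11.63 and 12.34 and 11.89 and 11.98 (3.91 ± 0.14, adjusted p = 5.64e-08). Others among the 15 highest were Itgbl1 at 3.62 ± 0.16, Islr at 3.55 ± 0.14, the sulfatase Sulf2 at 3.44 ± 0.16, Srpx2 at 3.10 ± 0.14 and the latent TGF-beta binding protein Ltbp2 at 2.97 ± 0.18.

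Preadipocyte and fibroblast genes rose in 13 of 20 and fell in 1 (median 0.71, or 1.23 over members above the filter on dim probe sets), among them the proteoglycans decorin (Dcn, 1.99 ± 0.15) and lumican (Lum, 1.88 ± 0.19). The member that fell was Ly6c1 (-2.78 ± 0.36). Collagens rose in 9 of 16 and fell in 0 (median 0.69), with Col11a1 at 1.92 ± 0.16, Col5a1 at 1.42 ± 0.16 and Col1a1, the main fibrillar chain, at 1.16 ± 0.17. TGF-beta and myofibroblast genes were mixed (13 of 24 higher, 4 lower): Thbs1, which activates latent TGF-beta, differed by 2.75 ± 0.22, periostin (Postn) by 2.47 ± 0.16 and Tgfb3 by 1.95 ± 0.15.

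Of 17 YAP and serum response targets 10 rose and 0 fell (median 0.64). Cyr61 (also named Ccn1), a matricellular protein, read 14.14, 14.42, 14.54, 14.95 and 14.41 in the second arrays, against 10.99, 10.85, 10.62, 10.49 and 10.75 in the first and 10.76 and 10.92 in control (3.75 ± 0.19, adjusted p = 3.93e-07). Its relative Ctgf lay below the negative controls in all arrays and was not called.

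Genes of cell division rose together, each by less than 2 log2 units. Of 26 mitosis genes 25 rose (median 1.35). Kif11, the motor that separates spindle poles, read 11.77, 11.51, 11.77, 11.80 and 11.68 in the second arrays, against 10.03, 10.16, 10.27, 9.45 and 10.35 in the first and 10.41 and 10.51 in control (1.65 ± 0.18, adjusted p = 7.4e-05). Top2a, which untangles replicated DNA, read 11.24, 11.09, 11.20, 10.79 and 10.92 against 9.45, 9.65, 9.17, 8.75 and 10.08 and 9.86 and 9.81 (1.63 ± 0.19, adjusted p = 0.000149), and cyclin A2 (Ccna2) differed by 1.63 ± 0.18. In these genes the first arrays tended to lie below control, tri-SQ 1 lowest of all. The 1 member not called was the checkpoint gene Mad2l1 (-0.09 ± 0.20, adjusted p = 0.813). DNA replication genes rose in 18 of 29 and fell in 2 (median 0.64), with polymerase alpha (Pola1) at 1.58 ± 0.21, the helicase subunit Mcm6 at 1.49 ± 0.14 and ribonucleotide reductase (Rrm2) at 1.27 ± 0.16.

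Mitosis promoters are known for the pair of CHR and CCAAT elements, bound by the DREAM and MuvB complexes and by NF-Y. TTTGAA (CHR), on either strand, was in 16 of 22 mitosis genes with a promoter in the table (72.7%) and in 20.2% of all genes. CCAAT, on either strand, was in 19 (86.4%; all genes, 41.1%). The E2F sites TTTGGCGC and TTTCCCGC, on either strand, were in 0 of the 22 but in 8 of 23 DNA replication genes (34.8%; all genes, 1.8%). The 2 called mitosis genes with the largest difference among those with both elements are shown, with CHR and CCAAT matches of either strand in capitals.
Kif11, chr19:37376132-37376431, + strand: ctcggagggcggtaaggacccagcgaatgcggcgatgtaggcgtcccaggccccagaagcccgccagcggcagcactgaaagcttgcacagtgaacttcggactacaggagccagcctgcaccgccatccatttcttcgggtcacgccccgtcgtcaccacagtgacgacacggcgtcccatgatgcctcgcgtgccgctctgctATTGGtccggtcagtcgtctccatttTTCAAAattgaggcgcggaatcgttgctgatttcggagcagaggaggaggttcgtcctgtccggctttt
Top2a, chr11:99024140-99024439, - strand: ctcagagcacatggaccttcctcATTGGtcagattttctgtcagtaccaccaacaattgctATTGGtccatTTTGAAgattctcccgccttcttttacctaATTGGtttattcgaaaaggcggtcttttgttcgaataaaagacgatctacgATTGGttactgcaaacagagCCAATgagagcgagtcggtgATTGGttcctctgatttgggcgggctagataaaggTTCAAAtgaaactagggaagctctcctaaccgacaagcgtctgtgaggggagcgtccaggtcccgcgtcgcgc
Kif11 held 1 match to each element, 19 and 45 bases before the start site, and Top2a 2 matches to CHR and 6 to CCAAT.

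Interferon-stimulated genes rose in 20 of 35 and fell in 1 (median 0.92). Ifit3, which binds antiviral signalling proteins, read 10.68, 10.80, 10.66, 10.44 and 10.80 in the second arrays, against 9.29, 8.75, 8.10, 7.80 and 8.60 in the first and 8.94 and 8.75 in control (2.17 ± 0.19, adjusted p = 2e-05). Its second arrays lay within 0.36 log2 units of each other, while the first ranged from 7.80 to 9.29. Mx2 (2.01 ± 0.18, with 3 of 5 first arrays above the negative controls) and Oasl2 (2.00 ± 0.16) rose as well. The member that fell was the exonuclease Isg20 (-2.70 ± 0.28), with 2 of 5 second arrays above the negative controls. The core of the interferon-stimulated response element, searched as GAAA, any 2 bases and GAAA again on either strand, was in 12 of 27 such genes with a promoter in the table (44.4%; all genes, 3.99%). The called member that rose most among them is shown with its matches in capitals.
Ifit3, chr19:34583279-34583578, + strand: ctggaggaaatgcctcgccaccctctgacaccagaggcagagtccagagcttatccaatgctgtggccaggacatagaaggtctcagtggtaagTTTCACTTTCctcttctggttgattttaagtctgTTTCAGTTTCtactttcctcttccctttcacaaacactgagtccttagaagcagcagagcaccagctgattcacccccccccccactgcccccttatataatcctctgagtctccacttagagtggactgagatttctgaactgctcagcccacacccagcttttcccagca
The window held 2 matches, the nearer one 122 bases before the start site.

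Inflammatory mediators rose in 13 of 29 and fell in 1 (median 0.29, or 0.45 without the tri-SQ pair and 1.26 over members above the filter on dim probe sets). Ptgs2, the inducible prostaglandin synthase COX-2, read 8.85, 9.32, 8.92, 8.78 and 9.19 in the second arrays, against 5.92, 5.79, 5.86, 5.87 and 6.55 in the first and 5.89 and 6.59 in control (3.01 ± 0.16, adjusted p = 5.6e-07). Of the first arrays 1 of 5 (tetra-SQ 1), and of the controls control 2, lay above the negative controls, so the size of the difference rests on first array signals mostly at background. The adhesion molecule Vcam1 (2.06 ± 0.17) and the chemokine Ccl2 (1.95 ± 0.19) also rose. In the NF-kB and Toll-like receptor list 9 of 22 rose and 2 fell, among them the regulator Nfkbiz (2.58 ± 0.15), the ubiquitin ligase Birc3 (1.71 ± 0.15) and the receptor Tlr2 (1.65 ± 0.17). Complement and acute phase genes went down more often (8 of 18 lower, 3 higher). Haptoglobin (Hp) fell by 3.64 ± 0.14, orosomucoid (Orm1) by 3.38 ± 0.20 and Serpina3n by 2.81 ± 0.14, all of which fat cells secrete.

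Among the stress lists given here, the unfolded protein and NRF2 lists ran mostly downward, and the heat shock and p53 lists were split. Of all probe sets, 11.2% were called higher and 9.96% lower. The unfolded protein and integrated stress response list fell in 12 of 23 and rose in 1 (median -0.53). Psat1, a serine synthesis enzyme under ATF4, fell by 1.75 ± 0.14, and the chaperone Hspa5 (BiP), the classic marker of the unfolded protein response, differed by 0.04 ± 0.13, adjusted p = 0.897. NRF2 and glutathione genes fell in 11 of 24 and rose in 2, with heme oxygenase (Hmox1) at -2.43 ± 0.15 and Gclm, of glutathione synthesis, at -1.84 ± 0.16. Their median ranged from 0.01 in SQ to -1.23 in tri-SQ. Heat shock genes were split (5 of 16 lower, 3 higher), the factor Hsf2 at -1.79 ± 0.15, and so were p53 targets (4 of 16 lower, 3 higher), where the kinase Plk2 rose by 2.83 ± 0.20.

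Dexamethasone is part of the induction mix, and glucocorticoid targets did not move one way: 8 of 19 rose and 6 fell. The share called was 73.7%, against 21.2% of all probe sets. Sgk1 (2.14 ± 0.17) and the phosphatase Dusp1 (2.48 ± 0.20), which is also an immediate early gene, rose, while Klf15 fell. Circadian clock genes fell in 10 of 18 and rose in 1 (median -0.54), with the nuclear receptors Nr1d1 at -1.66 ± 0.15 and Rora at -1.86 ± 0.21. Ribosome biogenesis genes were called in 7 of 28, 5 lower and 2 higher, a share of 25% near that of all probe sets.

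Ribosomal proteins gave no call between array numbers, and their differences ran in both directions over the compounds. Of 21 measured, 0 passed the limma test in either direction (median 0.21). Their median was -0.46 in tri-SQ and -0.12 in tetra-SQ, but 0.26 in mono-SQ, 0.32 in di-SQ and 1.00 in SQ. Rpl10a read 15.45, 15.13, 15.37, 14.09 and 15.29 in the second arrays, against 13.74, 14.81, 14.50, 14.60 and 15.14 in the first and 13.45 and 13.37 in control (0.51 ± 0.27, adjusted p = 0.235). The lowest value of the second arrays was tri-SQ 2 and the lowest of the first was SQ 1, and all 10 lay above both controls. Against control the list's median was 0.90 in the second arrays, where 15 of 21 were called higher (of all 22206 probe sets, 2151). In the first arrays it was 0.81, and 0 were called (of all probe sets, 1). These 2 comparisons share the control arrays.

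The same 2 arrays, tri-SQ 2 and SQ 1, set the widest differences between compounds among called genes. The 6 genes with the largest spread of the 5 paired differences are Retn, which encodes the adipokine resistin, Hrsp12, the pyruvate carrier Mpc1, the mitochondrial iron-sulfur protein Cisd1, the surface protein Ly6c1 and the complex I subunit Ndufb9. They were picked for that spread, so its size is a description. Retn fell by 0.99 in SQ, 1.91 in di-SQ, 2.50 in mono-SQ, 3.10 in tetra-SQ and 4.62 in tri-SQ. The other 5 kept that order of compounds, with falls of 0.08 to 1.48 in SQ and of 3.47 to 4.76 in tri-SQ. Retn read 9.85, 9.68, 10.29, 8.23 and 9.60 in the second arrays, against 10.84, 12.18, 12.20, 12.85 and 12.70 in the first and 10.24 and 10.43 in control, so its first arrays stood above control. Without the tri-SQ pair all 6 still passed, at -0.81 for Hrsp12 to -2.28 for Ly6c1. Hrsp12 did not pass without the mono-SQ pair (-1.41, limma adjusted p = 0.0707) or without the tetra-SQ pair (-1.30, adjusted p = 0.104). With 1 pair for each compound, a difference between compounds has no replicate check.

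**Figure D4:**
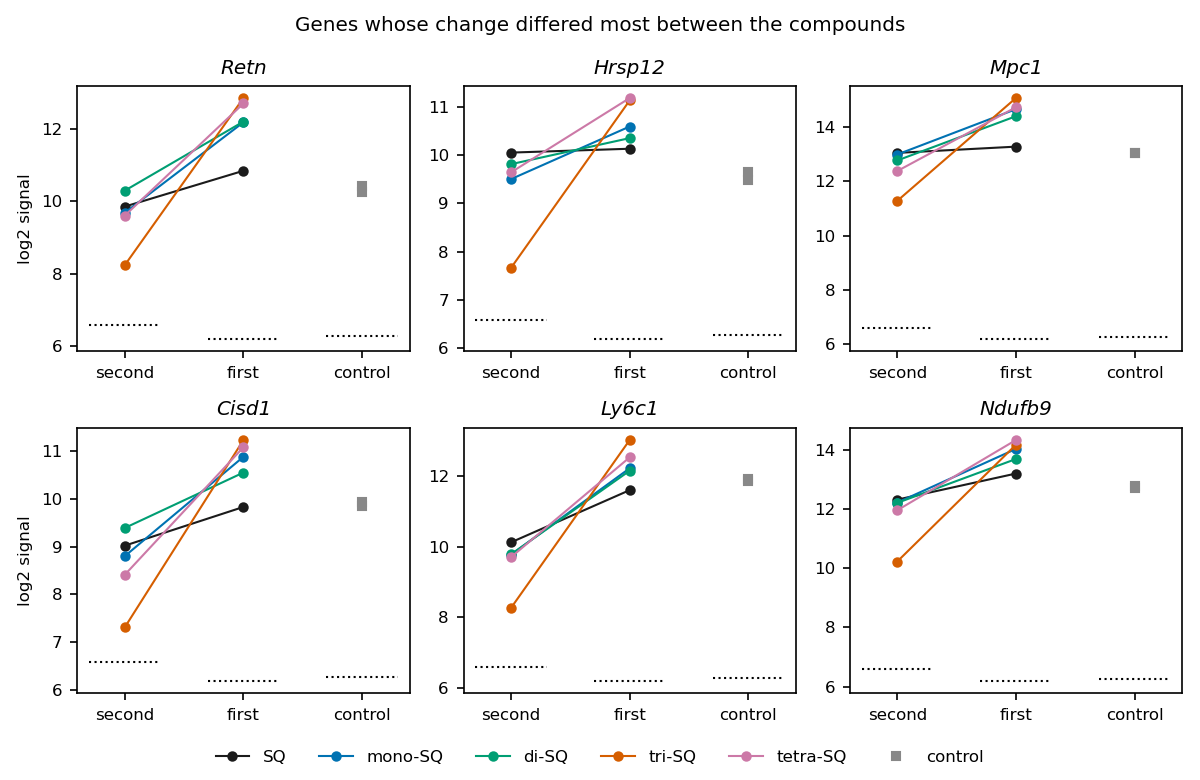
Log2 signal in the second, first and control arrays of the 6 called genes whose paired difference varied most between compounds, with a line for each compound and dotted marks at the median negative control signal of each class. In all 6, tri-SQ 2 is the lowest second array and SQ 1 the lowest first array.

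The control pair gives the measure of a change with array number where no compound was added. The change from first to second array differed between compounds and control in 484 probe sets (2.18%, limma, adjusted p under 0.05), 166 higher and 318 lower. That count was 255 without the mono-SQ pair, 259 without di-SQ, 275 without tetra-SQ and 838 among probe sets above the filter on dim signals. With 1 control pair, this test assumes that a control pair varies like a compound pair. Among the leading genes the compounds' change exceeded that of control by 5.80 for Egr1 (adjusted p = 5.18e-05), while Plin1 was lower by 4.66 (0.000135) and Enpp2 by 6.74 (5.14e-05). Pparg passed (-2.84, adjusted p = 0.00159), and so did Sqle (-2.18, adjusted p = 0.00697) and Jun (2.92, adjusted p = 0.00153). Kif11 (1.55, adjusted p = 0.12), Top2a (1.68, adjusted p = 0.126) and Dlk1 (1.86, adjusted p = 0.065) did not pass. Of 26 mitosis genes 1 was called in this test, against 18 of 33 mature adipocyte and 12 of 38 immediate early genes.

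Set against the 2 control arrays, the second arrays differed in 4211 probe sets (19%), 2151 higher and 2060 lower. The first arrays differed in 1 (0.0045%), with 2717 at an unadjusted p under 0.05. That probe set is Lipo4, a lipase family member at 4.29 in the first arrays and 5.57 in control, below the negative controls in all arrays. Of the 4697 probe sets called between second and first arrays, the first mean was nearer to control in 4079 and the second mean in 617. With either control array left out the second arrays differed in 1880 or 1896 probe sets, so the size of that count rests on both controls.

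By list the same split held for fat cell genes and not for all lists. The mature adipocyte median against control was -2.23 in the second arrays and 0.08 in the first. Cholesterol synthesis had -1.23 and -0.04, immediate early genes 0.91 and -0.09, matrix enzymes 1.33 and -0.24, and mitosis 1.10 and -0.19. The first arrays averaged 1.82 above control for Retn (limma adjusted p = 0.217), 1.37 for Mpc1 (0.247) and 1.13 for Ndufb9 (0.317), none of which passed.

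**Figure D5:**
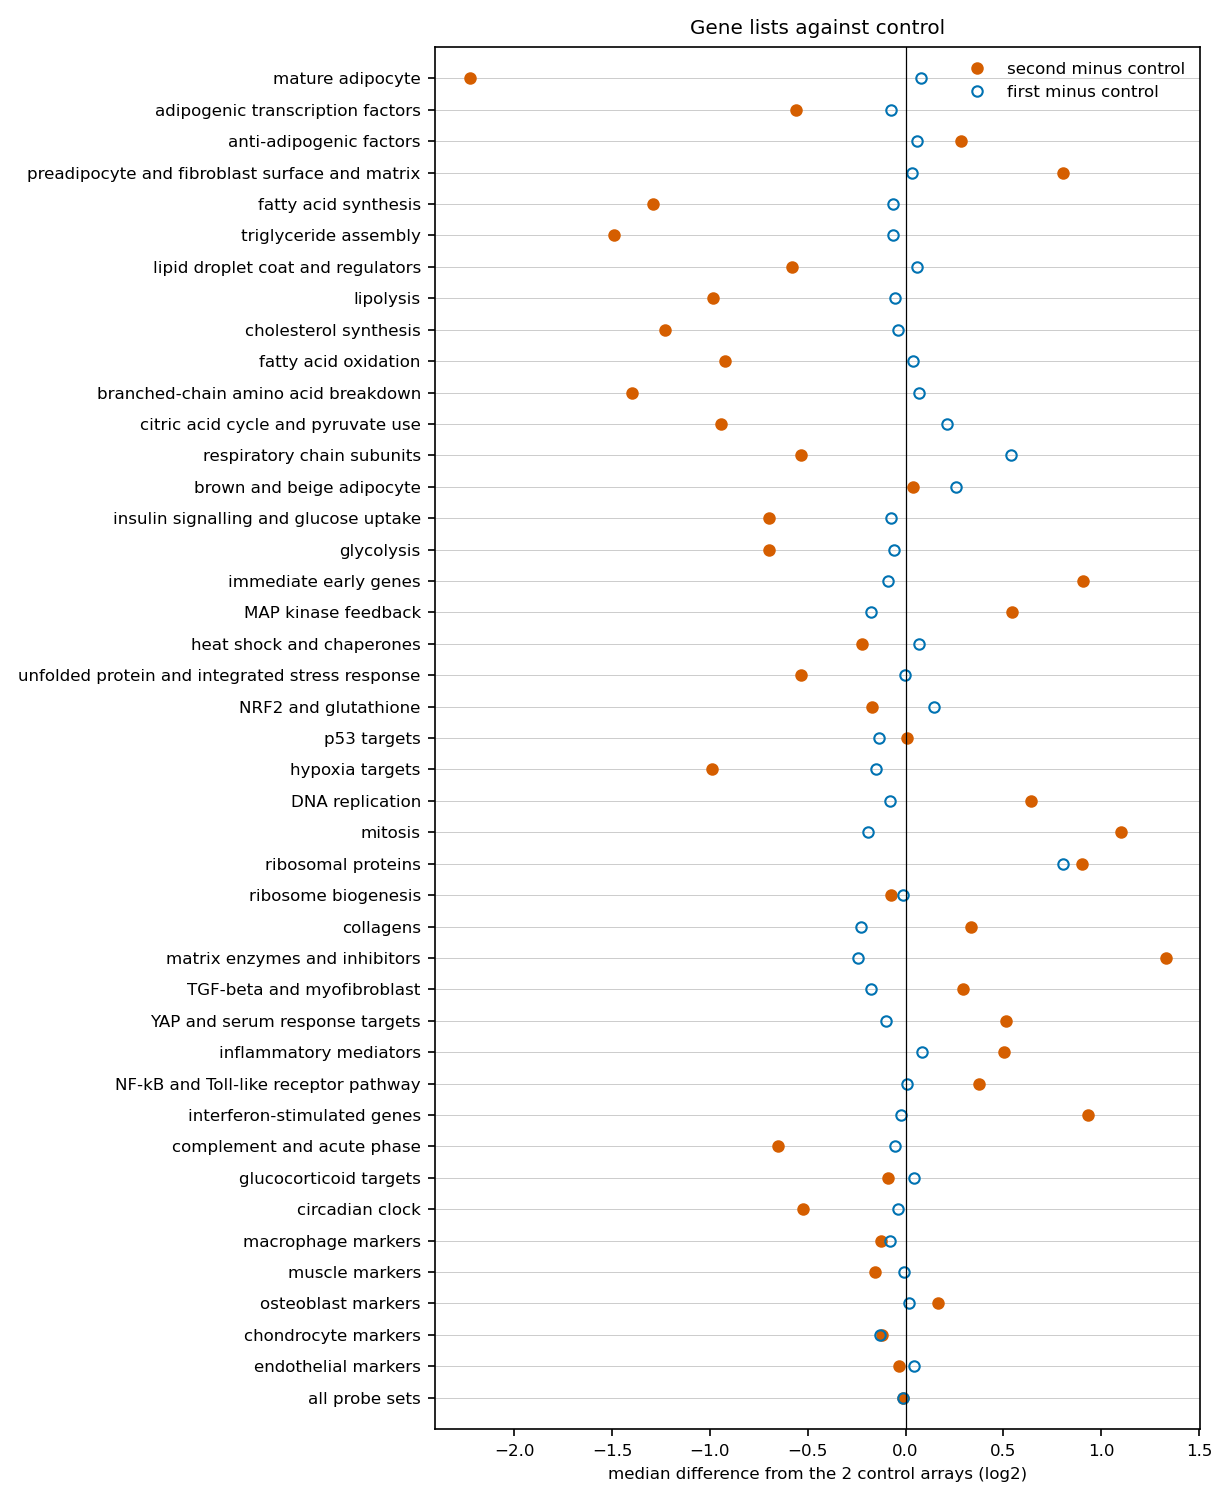
Median log2 difference from the mean of the 2 control arrays for each of 42 gene lists and all probe sets, filled circles for the second compound arrays and open circles for the first. Open circles lie within 0.26 of 0 except for ribosomal proteins (0.81) and respiratory chain subunits (0.54), and filled circles range from -2.23 for mature adipocyte genes to 1.33 for matrix enzymes.

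Markers of other cell types were mostly at background. All 9 endothelial and 13 of 14 macrophage markers lay below the negative controls in every second array and every first array, and 0 of either list were called. The mean level of the macrophage list was 4.33 to 4.43 in the second arrays and 4.21 to 4.45 in the first, and that of the endothelial list 3.70 to 3.85 and 3.65 to 3.92. Of 13 muscle markers 11 lay below the negative controls in the second arrays and 10 in the first, and 2 fell, among them desmin (Des, -2.02 ± 0.19), with 2 of 5 second arrays above background. Osteoblast markers were called in 3 of 9 (33.3%, 2 higher, 1 lower) and chondrocyte markers in 3 of 8 (37.5%, 1 higher, 2 lower). Of muscle markers 15.4% were called, and of all probe sets 21.2%. Shares in lists this small rest on 2 or 3 genes each and are a description. The osteoblast marker that fell is Alpl, which fibroblasts and fat cells also express.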

How the data were processed

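RNA of 12 samples of 3T3-L1 cells was hybridised to mouse expression arrays, 2 for each of 6 groups. The deposited log2 signals per probe set were used as the authors left them; the submitters' processing notes name RMA and Transcriptome Analysis Console 4, and the file's build is not given in the sources used here. Negative controls and spikes were taken from the other deposited log2 table of the same arrays, whose values differ by a median of 0.080 to 0.082.

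Limma 3.58.1 (R 4.3.3) was fitted to all 22206 probe sets and 12 arrays with the 6 groups, the array number and its interaction with control as terms (4 residual degrees of freedom), and p-values were Benjamini-Hochberg adjusted over all probe sets at 0.05. Arrays of 1 compound share a block because the labels give both the same compound. Second and first arrays were each set against control in a second fit. The scripts were tested on simulated data. The brightest probe set stood for each symbol, and 20547 of 21154 symbols matched RefSeq (GRCm38.p6), the source of the promoters.

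Genes were named by rule: the 15 highest and 15 lowest called genes with 1 direction in all 5 pairs and a level above the median, up to 4 members with the largest and 2 with the smallest difference of each of 42 lists, the 6 with the widest spread between pairs, and the 6 largest among those whose first arrays lay within 0.25 of control. The members and the lists were chosen with earlier results of these data known. Errors after ± are standard errors of the fitted difference, or SDs where marked. The authors' deposited comparisons of compound means with control were not used here, and some genes that the rule names are not reported here. Alternatives were no block, a dim filter, quantile normalization, median-centring, the other table, a trended variance and leaving out each pair or control.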

Additional observations from a re-analysis of the deposited data

Results flagged for a closer look

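A single array stood far from the other 4 of its class, by the gap to its nearest neighbour over the range, in 29 of 288 groups of 5 values tested. Chance flags about 1 in 20 groups. In tri-SQ 2, Egr1 at 16.07 (others 15.76 to 15.82), Mmp3 at 11.81 (others 13.28 to 13.61), Hrsp12 at 7.66 (others 9.5 to 10.05) and Ly6c1 at 8.26 (others 9.7 to 10.12) stood apart. The same array had Ndufb9 at 10.22 (others 11.95 to 12.31), Klf15 at 5.37 (others 6.15 to 6.4), Dcn at 15.6 (others 16.35 to 16.59) and Bnip3 at 12.47 (others 13.16 to 13.39). Also in tri-SQ 2 stood Rpl10a at 14.09 (others 15.13 to 15.45), Dusp1 at 12.35 (others 12.95 to 13.11), the spike dap at 8.604 (others 7.189 to 7.511) and the spike thr at 7.532 (others 6.368 to 6.45). The spike cre in tri-SQ 2 was at 12.57 (others 12.429 to 12.447). In tri-SQ 1, Pde3b at 14.14 (others 13.41 to 13.61), Smad3 at 10.05 (others 10.78 to 10.92) and Timp2 at 12.31 (others 12.89 to 13.08) stood apart. The same array had Sgk1 at 7.27 (others 8.07 to 8.38). In SQ 2, Thbs1 at 16.28 (others 16.5 to 16.58) stood apart. In SQ 1, Adipoq at 17.46 (others 17.97 to 18.07) and Fabp4 at 18.56 (others 18.76 to 18.81) stood apart. In tetra-SQ 2, Pcx at 11.34 (others 11.67 to 11.78) stood apart. In tetra-SQ 1, Ptgs2 at 6.55 (others 5.79 to 5.92), Acsl1 at 16.29 (others 16.77 to 16.92), Gpd1 at 16.18 (others 16.68 to 16.79) and Hspa5 at 17.88 (others 17.72 to 17.76) stood apart. The same array had the spike dap at 7.821 (others 7.316 to 7.421). In mono-SQ 2, the spike lys at 3.52 (others 3.904 to 4.022) and the spike bioD at 10.629 (others 10.868 to 10.938) stood apart. In di-SQ 1, Jund at 10.27 (others 10.06 to 10.12) stood apart. 

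The change between array numbers differed between the compounds and the control pair in 89 of 131 named genes (limma, adjusted p under 0.05, with 1 control pair). Over all probe sets it differed in 484 of 22206 (2.18%). Most named genes were picked for a large second minus first difference, which this contrast contains. Their high share was therefore built in and is a description. The values are the compounds' change minus that of control, in log2 units. The most positive were Egr1 (5.80), Egr2 (4.60), Zfp36 (4.43), Ier2 (4.31), Junb (4.26), Mmp9 (3.85), Ogn (3.82) and Cyr61 (3.59). Next came Mmp3 (3.44), Itgbl1 (3.33), Sulf2 (3.30), Islr (3.28), Ltbp2 (3.12), Srpx2 (3.09), Spry2 (2.95) and Jun (2.92). Then followed Plk2 (2.89), Errfi1 (2.76), Nfkbiz (2.72), Adamts2 (2.69), Thbs1 (2.64), Ereg (2.55), Dusp1 (2.50) and Postn (2.43). The compounds also exceeded control for Timp2 (2.4), Ifit3 (2.36), Mx2 (2.35), Ptgs2 (2.31), Vcam1 (2.24), Sgk1 (2.16), Dcn (2.02) and Oasl2 (1.96). The smallest of these were Col11a1 (1.87) and Mcm6 (1.64). The most negative were Ghrh (-8.15), Enpp2 (-6.74), Peg10 (-6.22), Sbsn (-6.05), Anxa8 (-5.82), Cyp2ab1 (-5.75), Apol6 (-5.31) and Rasd1 (-5.24). Further down the order stood Pde3b (-5.18), Alpl (-5.10), Cfd (-5.07), Slc2a4 (-4.93), Sncg (-4.92), Ndrg1 (-4.89), Ces1f (-4.89) and Cbr2 (-4.88). After them came Plin1 (-4.66), Lipe (-4.39), Gpd1 (-4.19), G0s2 (-4.07), Cidec (-3.92), Dgat2 (-3.90), Orm1 (-3.71) and Nr1h3 (-3.65). The compounds were also lower for Dgat1 (-3.64), Scd3 (-3.53), Hp (-3.51), Plin4 (-3.45), Pcx (-3.39), Cebpa (-3.14), Adipoq (-2.99) and Dbt (-2.97). Below these in size lay Serpina3n (-2.88), Pparg (-2.84), Klf15 (-2.80), Pfkfb3 (-2.77), Acsl1 (-2.70), Fabp4 (-2.65) and Cycs (-2.63). A similar range held Hmox1 (-2.47), Idh3a (-2.42), Car9 (-2.42), Dhcr7 (-2.40), Fasn (-2.38), Cyc1 (-2.36), Bcat2 (-2.34) and Cpt2 (-2.25). Smaller drops were found for Sqle (-2.18), Cyp51 (-2.11), Des (-2.07), Hk2 (-2.03), Gclm (-2), Hsf2 (-1.97) and Psat1 (-1.83). The smallest drops were those of Nr1d1 (-1.66). 

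The negative control probe sets were not among the probe sets tested, but their medians set the bounds and the dim filter. Their median was 6.485 in the lowest of the second arrays, above 6.263 and 6.269 in the 2 control arrays.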

How the results depend on the processing

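The replicate block pairs arrays by compound. Without it 5042 probe sets were called between second and first arrays, and the count was 4779 with 9769 probe sets above the dim filter, 4868 after quantile normalization, 4716 after median-centring, 4682 in the other deposited table and 5067 with a trended, robust variance. Leaving out a pair gave 3606 to 4549 calls, 1883 to 2332 of them higher and 1701 to 2282 lower. The comparison with the change in control moved more: 838 calls under the dim filter, where fewer probe sets were tested, and 255 to 584 with a pair left out. Second arrays against control gave 1880 to 5037 calls when a pair or a control array was left out. The lower counts, 1896 without control replicate 1 and 1880 without control replicate 2, come from a fit in which the lone control is assumed to vary like the other arrays. First arrays against control gave 0 calls in the other table and 0 to 2 when a pair or a control array was left out. Most named genes were picked for a large or a very small difference in the main fit, which favours an unchanged call. Of 1434 results for named genes over the alternatives, 1432 kept their side of the threshold. The 2 exceptions were Hrsp12 without mono-SQ (-1.41) and without tetra-SQ (-1.30), for which the cause was not tested. No gene that passed changed direction, but genes that did not pass could change sign. Nnat, for example, went from 0.026 to -0.145 without the tri-SQ pair. Of 377 list medians 356 moved by less than the spread, and 16 of the others moved under the dim filter, where chondrocyte (0.70), osteoblast (0.94), glucocorticoid (0.12) and muscle (-1.09) medians changed sign. Under that filter the median was also over 1.5 times as far from or as near to 0 for lipolysis (-2.58), inflammatory mediators (1.26), complement (-1.53), fibroblast (1.23), lipid droplet (-0.78) and brown fat genes (-0.07). Signals below the negative controls limit the sizes given as bounds, and the number of arrays limits the precision of every value.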
